A study of Homo sapiens with 6 samples.

Results

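Interferon-inducible genes were examined in Huh7, a long-established line of human liver cancer cells, with and without knockdown of versican, the large matrix proteoglycan encoded by VCAN. The members were 45 genes picked by symbol, the guanylate-binding proteins GBP1 to GBP5 among them, and all 45 had a row among the 23344 rows of the deposited expression table. The control group (shNC) held 3 libraries of Huh7 cells given a control lentivirus, and the knockdown group (sh2) held 3 libraries of Huh7 cells given a lentivirus against VersicanV1. Both groups had therefore been through lentiviral transduction with polybrene, and all knockdown libraries share the label sh2. Nothing in the labels tells whether replicates were separate cultures, so each p-value measures only the spread between libraries, and that spread may be technical. The comparison asks how genes of the interferon response differed between the groups and between the libraries of each group.

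Interferons are secreted proteins that warn cells of infection. Type I and type III interferons act through their receptors and the JAK kinases to assemble a complex with STAT2 and IRF9 that binds the interferon-stimulated response element (ISRE), while interferon gamma acts mainly through the gamma-activated site (GAS). The genes they switch on encode antiviral effectors, sensors of foreign RNA and the pathway's own transcription factors. Guanylate-binding proteins are large GTPases that are strongly induced by interferon gamma and attack vacuoles and membranes of intracellular microbes. The transcription factor IRF1 and NF-kB also act on several of these genes.

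The promoters of members with higher values in knockdown libraries are shown because they carry the elements by which these genes are known. RefSeq promoter windows of 300 bases (GRCh38.p14, 250 before to 50 after the start) were matched for 33 of 45 members. The ISRE core was searched as GAAA, any 2 bases and GAAA again, and the GAS as TTCNNNGAA, on both strands, and the NF-kB consensus by its usual degenerate letters. In the lines that follow, the 250 bases before the start are printed 5′ to 3′ on the gene's strand. Capitals mark the ISRE core in GBP1, IFITM3 and ISG20 and the GAS in IRF1.
GBP1, chr1:89065209-89065458, minus strand: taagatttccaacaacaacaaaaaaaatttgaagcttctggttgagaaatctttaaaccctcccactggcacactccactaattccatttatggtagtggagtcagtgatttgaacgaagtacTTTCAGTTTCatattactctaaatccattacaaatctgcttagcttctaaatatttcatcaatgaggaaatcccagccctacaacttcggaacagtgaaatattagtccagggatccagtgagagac
IFITM3, chr11:320861-321110, minus strand: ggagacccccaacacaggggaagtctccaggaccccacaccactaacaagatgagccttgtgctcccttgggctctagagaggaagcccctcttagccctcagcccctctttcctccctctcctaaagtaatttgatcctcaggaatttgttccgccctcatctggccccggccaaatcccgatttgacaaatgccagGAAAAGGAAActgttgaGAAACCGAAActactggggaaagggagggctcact
ISG20, chr15:88638766-88639015, plus strand: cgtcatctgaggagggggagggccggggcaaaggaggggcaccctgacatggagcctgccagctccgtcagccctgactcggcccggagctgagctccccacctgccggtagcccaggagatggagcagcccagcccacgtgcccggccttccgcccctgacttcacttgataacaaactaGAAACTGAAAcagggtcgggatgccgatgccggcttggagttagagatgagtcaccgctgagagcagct
IRF1, chr5:132490774-132491023, minus strand: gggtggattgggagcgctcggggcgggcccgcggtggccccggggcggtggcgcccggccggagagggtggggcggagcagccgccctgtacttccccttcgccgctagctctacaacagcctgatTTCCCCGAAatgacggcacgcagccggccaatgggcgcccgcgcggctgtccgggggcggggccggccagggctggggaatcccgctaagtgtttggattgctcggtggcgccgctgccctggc

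The ISRE core was found in 23 of the 33 matched members (69.7%), against 3.65% of all 27305 promoter windows. It was in 15 of the 22 matched members that were tested (68.2%), against 2.58% of the windows of all genes tested. Among these 22 it was in 5 of the 9 with higher values at an unadjusted p below 0.05 (55.6%). The members were picked as interferon-inducible genes, so this excess says nothing about the knockdown. In GBP1 it lay from 127 to 118 bases before the start and read TTTCAGTTTC on the gene's strand. IFITM3 held a pair of cores (GAAAAGGAAA and GAAACCGAAA), as did OAS3 (GAAACTGAAA and GAAAACGAAA), and ISG20 held GAAACTGAAA. The GAS was found in 9 members (27.3%), against 7.88% of all windows. IRF1 (TTCCCCGAA), IRF9 (TTCTGGGAA), OAS1 (TTCAGAGAA) and IFI35 (TTCACGGAA) had it without an ISRE core. GBP1 had no match to TTCNNNGAA, but the search misses any GAS with other letters, so a GAS in GBP1 is not excluded. The NF-kB consensus was found in 8 members (24.2%), against 10.8% of all windows, among them IRF1, IFITM3 and OAS3. In 3 of the 9 members with a GAS it overlapped an ISRE core, and 0 of the 8 NF-kB members had such an overlap. Of the 22 tested members 22.7% had the GAS and 27.3% the NF-kB consensus, against 6.47% and 12.8% of the windows of all genes tested. These are matches of letters in the windows, and binding was not measured.

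Values are FPKM as taken here, that is, per length and per library total. The libraries summed to between 851418 and 975501, and read totals are unknown. Relative depths taken from low values of single-transcript genes ran from 0.911 to 1. Only values from 0.1 to 1.5 and lengths from 500 to 3000 bases entered them, which limits how far they can differ between libraries. They therefore do not show whether depths were alike. The knockdown label was checked on VCAN, which was at 4.79, 6.24 and 8.10 in control replicates 1, 2 and 3 and at 1.90, 1.74 and 1.64 in knockdown replicates 1, 2 and 3. It fell by 1.39 on the log2(FPKM + 1) scale (SE 0.19, limma adjusted p = 0.0103), and without control replicate 2 it did not pass (adjusted p = 0.0537). All 10 hepatocyte markers were present, from TTR (9.97 to 30.0) to ALB (3128 to 4006), and 4 of them passed the test. FGB (0.70), APOA1 (1.05) and APOH (0.56) rose and TTR fell (-1.19), as log2 differences with adjusted p of 0.0188, 0.0325, 0.0396 and 0.0077. Of 16 leukocyte markers, all were highest among the knockdown libraries in replicate 2. Their summed level was 78.1 to 95.6 in control libraries and 112, 230 and 111 in knockdown replicates 1, 2 and 3, most of it from LYZ and CD14. Without LYZ and CD14 the sum was 7.18 to 7.66 in control libraries and 10.5, 89.5 and 8.37 in knockdown replicates 1, 2 and 3. LYZ was the 1 leukocyte marker of 5 tested that rose, from 18.3, 24.7 and 24.8 to 44.5, 68.2 and 37.8 (1.08, adjusted p = 0.0277). The defining markers PTPRC, TYROBP and S100A8 were at 1.96, 5.90 and 17.9 in knockdown replicate 2 and at most 0.16, 0.19 and 0 elsewhere.

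Of the 45 members, 27 reached a value of 1 in at least 3 libraries and were tested, and 0 of these had every control library below 1. In the knockdown libraries 2 members rose, GBP1 and IFITM3, and 0 fell (limma, Benjamini-Hochberg adjusted p below 0.05 over all 13696 genes tested). That is 7.41% of the members tested, while 4.15% of all genes tested were called higher and 3.94% lower. The log2 fold change, knockdown minus control, was above 0 in 23 of 27 members, against 46.5% of all genes tested. Its median was 0.35 over the members and -0.03 over all genes tested. At an unadjusted p below 0.05, 10 of 27 members (37.0%) were higher and 0 lower, against 13.4% and 16% of all genes. In 8 members every knockdown library was above every control library, which held for 14.4% of all genes tested. The members were chosen with earlier results of these data known, so these shares describe the list and do not test it.

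**Figure D1:**
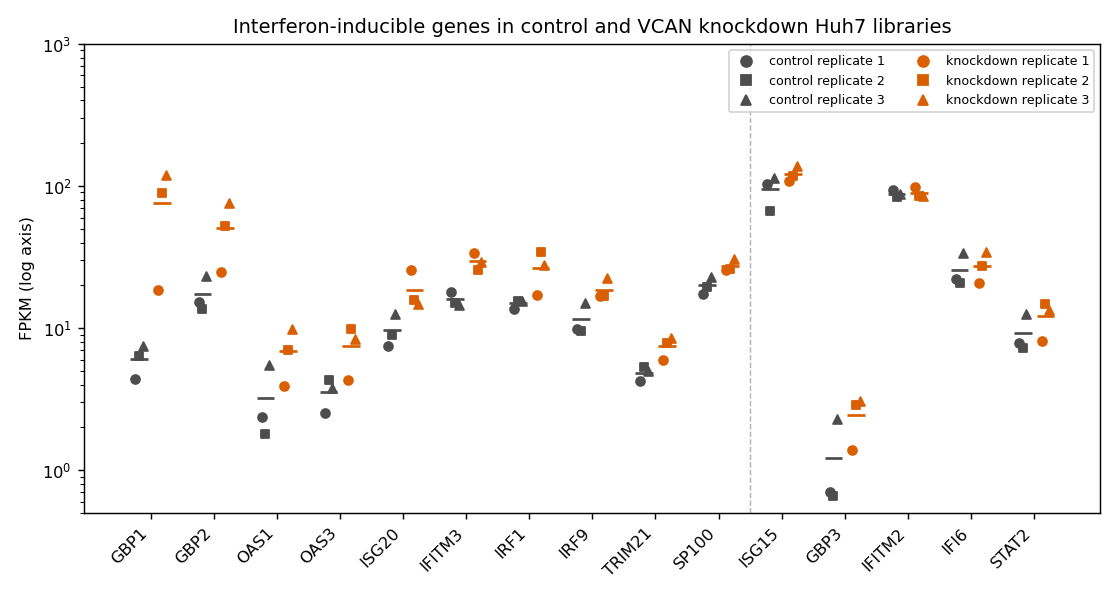
Deposited value (FPKM, log axis) of 15 members in each library; grey marks are control and orange marks knockdown libraries, shapes give the replicate number and bars the group means. Left of the dashed line are the 10 members with an unadjusted p below 0.05, and right of it are 5 others. GBP1 rises from at most 7.45 in control to at least 18.6 in knockdown libraries, while IFITM2 stays between 84.2 and 98.1.

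The guanylate-binding protein genes held the largest differences. GBP1 (ENSG00000117228) was at 4.35, 6.36 and 7.45 in control replicates 1, 2 and 3, and at 18.6, 88.6 and 120 in knockdown replicates 1, 2 and 3. The groups did not overlap, and knockdown replicate 1 lay far below the other two knockdown libraries. GBP1 rose by 3.11 on the log2 scale (SE 0.67, limma adjusted p = 0.0440), and its knockdown mean was 12.5 times the control mean. In such bulk RNA, more cells with the transcript and more transcript per cell cannot be told apart.

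GBP2, a second member of this GTPase family, was at 15.4, 13.5 and 23.3 in control and at 24.7, 52.6 and 75.5 in knockdown replicates 1, 2 and 3. Its groups did not overlap either, although knockdown replicate 1 was close to control replicate 3. The log2 difference of 1.40 (SE 0.37, 95% interval 0.56 to 2.24) narrowly missed the threshold (limma adjusted p = 0.0536). GBP3 had 0.70, 0.66 and 2.30 in control and 1.38, 2.87 and 3.05 in knockdown libraries. These groups overlapped, and the difference was 0.67 (SE 0.32, adjusted p = 0.200). GBP4 (0.05 to 0.32) and GBP5 (0.03 to 0.20) stayed near 0 in every library and were not tested. In RefSeq order GBP3, GBP1 and GBP2 are direct neighbours among protein-coding genes, as are GBP4 and GBP5. Family members share sequence, so reads may have been split between them.

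The GBP1 call depended on the libraries used. Over 11 alternatives to this fit it passed in 4, with log2 differences from 2.60 to 3.91 and adjusted p between 0.000136 and 0.156. Leaving out knockdown replicate 1 raised the difference to 3.91. Leaving out knockdown replicate 2, the library with leukocyte transcripts, gave 2.81 (adjusted p = 0.148). The part of leukocyte transcripts in the GBP1 values was not tested. Leaving out control replicate 1, 2 or 3 gave an adjusted p of 0.0809, 0.105 or 0.116, and leaving out knockdown replicate 3 gave 0.156. Testing all rows gave 0.0697, and rescaling each library to its total less mitochondrial transcripts gave 0.0594. GBP2 passed when knockdown replicate 1 was left out (1.84, adjusted p = 0.00304).

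The Mx proteins, dynamin-like GTPases that trap viral nucleocapsids, were not called. MX1 was at 0.83, 2.19 and 0.85 in control and 1.12, 1.76 and 1.08 in knockdown libraries (log2 difference 0.06, 95% interval -0.53 to 0.64). MX2 was at 5.48, 9.60 and 10.3 in control and 6.52, 7.42 and 5.64 in knockdown libraries (-0.29, 95% interval -0.80 to 0.21). Both sets of values overlapped between the groups. The difference between the GBP and Mx genes was not itself tested.

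Among the membrane restriction factors, IFITM3 rose. IFITM proteins are small membrane proteins that hinder the fusion of viruses with the cell, and BST2 (tetherin) holds budding virions at the surface. IFITM3 (ENSG00000142089) was at 18.0, 15.0 and 14.6 in control and at 33.8, 25.7 and 29.1 in knockdown replicates 1, 2 and 3. Every knockdown library was above every control library, and here knockdown replicate 1 was the highest. The log2 difference was 0.85 (SE 0.14, limma adjusted p = 0.0172), and the knockdown mean was 1.86 times the control mean. IFITM3 passed in 8 of 11 alternatives, and missed the threshold when all rows were tested (adjusted p = 0.0503) or when control replicate 2 or 3 was left out (0.0843 and 0.0577).

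IFITM2 was the most abundant of the family at 93.3, 84.2 and 87.9 in control and 98.1, 85.6 and 85.2 in knockdown libraries. Its groups overlapped, with a log2 difference of 0.02 (95% interval -0.23 to 0.26). IFITM1 was low, at 0.40, 0.27 and 0 in control and 1.37, 1.69 and 0.84 in knockdown libraries, and was not tested. BST2 was at 0.08, 0 and 0 in control and 0.36, 0.91 and 0.66 in knockdown libraries, also without a test. In both of these low genes the groups did not overlap. IFITM2, IFITM1 and IFITM3 are neighbours of closely similar sequence, so the split of reads between them is uncertain.

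Oligoadenylate synthetases make a second messenger that activates RNase L, and ISG20 is an exonuclease that degrades viral RNA. None of the 3 tested members of this group was called, and all had differences above 0. ISG20 was at 7.48, 8.95 and 12.6 in control and at 25.6, 15.7 and 14.7 in knockdown replicates 1, 2 and 3 (0.86, SE 0.24, adjusted p = 0.0594). The groups did not overlap, and as for IFITM3 the highest value was in knockdown replicate 1. OAS1 was at 2.38, 1.78 and 5.52 in control and 3.91, 7.01 and 9.82 in knockdown libraries (0.93, SE 0.36, adjusted p = 0.135). OAS3 was at 2.51, 4.32 and 3.76 in control and 4.31, 9.84 and 8.36 in knockdown libraries (0.87, SE 0.28, adjusted p = 0.0845). In both genes knockdown replicate 1 lay within the control range. OAS2 and OASL stayed at or below 0.21 and were not tested.

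None of the 4 transcription factor genes tested was called. IRF1, an activator that both interferon gamma and NF-kB induce, was at 13.7, 15.6 and 15.5 in control and at 17.0, 34.2 and 27.7 in knockdown libraries (0.73, SE 0.23, adjusted p = 0.0772). All 3 knockdown values were above control, with replicate 1 only just so. IRF9, the DNA-binding subunit of the complex with STAT2, was at 9.91, 9.52 and 15.0 in control and at 16.8, 16.8 and 22.3 in knockdown libraries (0.67, SE 0.19, adjusted p = 0.0664). Its partner STAT2 was at 7.80, 7.21 and 12.5 in control and 8.14, 14.7 and 13.4 in knockdown libraries, with overlapping groups (0.36, adjusted p = 0.375). IRF2, which competes with IRF1 for its sites, was at 5.18, 4.36 and 4.80 in control and 2.83, 4.75 and 4.24 in knockdown libraries (-0.25, 95% interval -0.66 to 0.17). IRF7, the amplifier of type I interferon production, was at 0.47, 0.32 and 0.27 in control and 1.16, 1.53 and 0.59 in knockdown libraries, too low to be tested.

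None of the 3 RNA sensor and PKR genes tested and neither of the IFIT genes tested was called. The RNA sensor DDX58 (RIG-I) was between 0.86 and 1.88 (log2 difference 0.05, 95% interval -0.49 to 0.58), and IFIH1 (MDA5) was at 4.83, 3.71 and 4.21 in control and 4.11, 6.23 and 7.05 in knockdown libraries (0.35, adjusted p = 0.271). EIF2AK2, which encodes the kinase PKR, was between 3.13 and 4.87 (-0.18, adjusted p = 0.519), and DHX58 was at or below 0.48. Among IFIT genes, whose products bind viral RNA, IFIT3 (0.99 to 1.81) and IFIT5 (2.35 to 3.35) had differences of 0.10 and 0.03 with adjusted p of 0.787 and 0.923. IFIT1 (0.34 to 1.56) and IFIT2 were not tested. IFIT2 was the only one of the 45 members whose knockdown values all lay below control, at 0.78, 0.52 and 0.95 against 0.45, 0.38 and 0.36.

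ISG15, a ubiquitin-like modifier, was the most abundant member, at 104, 66.8 and 114 in control and 109, 118 and 138 in knockdown libraries. Its groups overlapped (0.39, 95% interval -0.06 to 0.84, adjusted p = 0.234). TRIM21, a ubiquitin ligase that binds antibodies in the cytosol, was at 4.21, 5.29 and 5.02 in control and 5.99, 7.87 and 8.44 in knockdown libraries, without overlap (0.52, SE 0.16, adjusted p = 0.0795). PARP9 (10.7 to 16.2) and DTX3L (8.76 to 11.9), neighbours that encode an ADP-ribosyltransferase family member and its ubiquitin ligase partner, had differences of 0.29 and 0.14 and were not called. PARP14 (1.88 to 3.74) had 0.13, and TRIM22 stayed at or below 0.60.

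SP100, a component of PML nuclear bodies, was at 17.4, 19.6 and 23.0 in control and 25.6, 26.0 and 30.8 in knockdown libraries, without overlap (0.44, SE 0.14, adjusted p = 0.0828). PML itself was between 4.54 and 6.40 with overlapping groups (-0.12, adjusted p = 0.634). IFI6, a mitochondrial and endoplasmic reticulum protein gene, was at 22.0, 20.6 and 33.7 in control and 20.7, 27.5 and 34.2 in knockdown libraries (0.11, 95% interval -0.40 to 0.62). SAMD9, a restriction factor of poxviruses, was at 0.33, 0.51 and 0.61 in control and 0.74, 1.40 and 1.08 in knockdown libraries and was not tested. IFI27 reached 1.69 and IFI35 reached 1.37 in single libraries, while IFI44, IFI44L, RSAD2 and SAMD9L stayed at or below 0.30. In all, 18 members were too low for the test, and 12 of them were below 1 in every library. Of these 18, GBP5, IFITM1, BST2, IRF7 and SAMD9 (27.8%) had all knockdown values above control, which held for 10.2% of other rows that were too low for the test, and IFIT2 had all values below, against 3.55% of such rows.

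**Figure D2:**
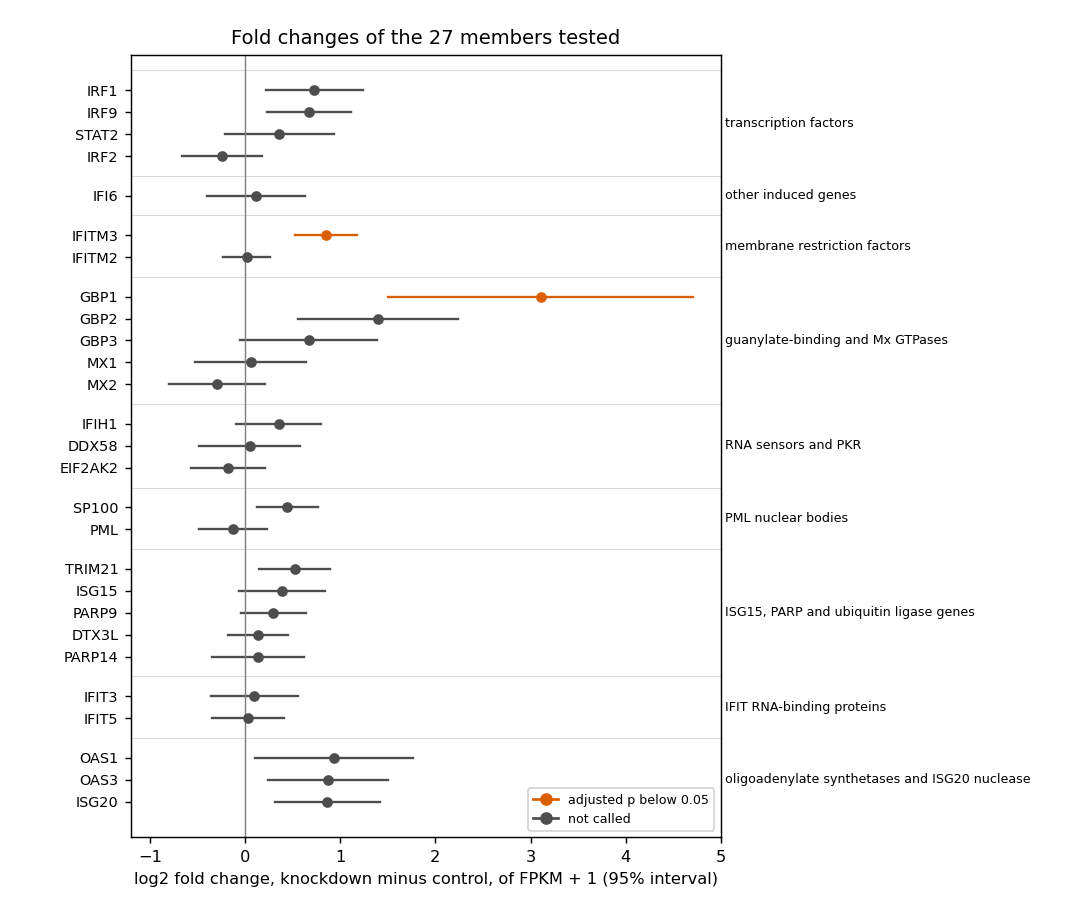
Log2 fold change (knockdown minus control, of FPKM + 1) of the 27 members tested, grouped by role, with 95% intervals from limma on 3 libraries per group; orange marks the 2 members called higher. The intervals of 10 members lie wholly above 0, and that of IFITM2 runs from -0.23 to 0.26.

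The 3 knockdown libraries differed in these genes. Among the 27 members tested, knockdown replicate 1 was the lowest of the 3 in 19 (70.4%), replicate 3 in 7 and replicate 2 in 1. Over all genes tested, replicate 1 was the lowest in 46%. Of the 10 members with higher values at an unadjusted p below 0.05, replicate 1 was lowest in 8, and the same held for 68.5% of the 1834 genes chosen in that way over the whole table. The median difference of the 27 members from the control mean was 0.15, 0.37 and 0.54 on the log2 scale in knockdown replicates 1, 2 and 3, while the median of all genes was between -0.06 and 0.01 in these libraries. VCAN itself was within 1.64 and 1.90 in the same libraries.

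Control replicate 3 stood above the other controls for these genes. It was the highest control in 18 of 27 members (66.7%), against 33.8% of all genes tested. Its median difference from the control mean was 0.20, with -0.17 and -0.07 in control replicates 1 and 2. Over all genes tested the median was -0.02, 0.004 and 0.01 in control replicates 1, 2 and 3. GBP2, GBP3, OAS1, IRF9, STAT2 and IFI6 had such a high value in control replicate 3. In 14 of 27 members, OAS1, GBP3, STAT2 and IFI6 among them, the value of control replicate 3 exceeded that of knockdown replicate 1. This was not counted over all genes tested, so it cannot be called a trait of the members.

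**Figure D3:**
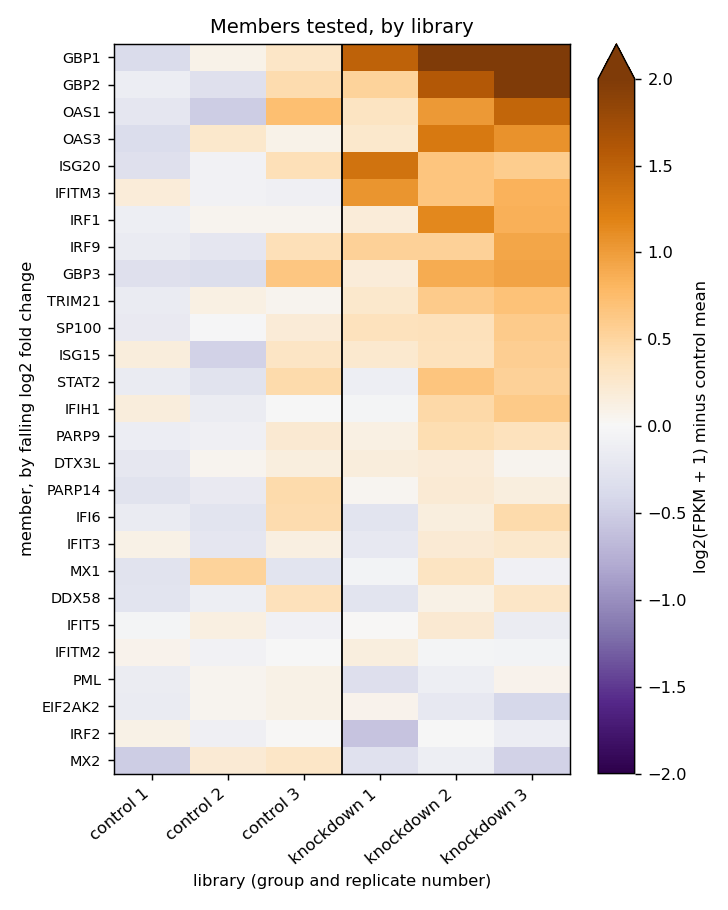
Log2(FPKM + 1) of each of the 27 members tested in each library, minus the mean of the 3 control libraries (colour, values above 2 share the darkest tone); rows are ordered by falling log2 fold change. Knockdown replicates 2 and 3 are orange over the upper rows, and knockdown replicate 1 is dark mainly for GBP1, ISG20 and IFITM3. Control replicate 3 is above the control mean in 22 of 27 members, which was not counted over all genes tested.

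Leaving out knockdown replicate 1 brought the number of members that rose from 2 to 11, while 11.7% of all genes tested were then called higher. With that library left out 12.8% of all genes were called lower and 0 members were. The 11 were GBP1, GBP2, IFIH1, IFITM3, IRF1, IRF9, ISG20, OAS1, OAS3, SP100 and TRIM21. IRF1 then had a difference of 1.00 (adjusted p = 0.00222). The knockdown arm then held 2 libraries, including replicate 2, whose leukocyte markers summed to 230 (89.5 without LYZ and CD14). Of the 11 members, IRF1 and OAS3 were highest in replicate 2, 7 were highest in replicate 3, and ISG20 and IFITM3 were highest in the library left out. Leaving out control replicate 1 left IFITM3 as the member called, with 0.934% of all genes higher and 0.296% lower. Leaving out control replicate 2 left 0 members at the adjusted threshold, with 0.37% of all genes called higher and 0.0444% lower. Leaving out control replicate 3 also left 0, with 1.35% of all genes called higher and 0.46% lower. IFITM3 was again the member called without knockdown replicate 2, with 0.591% of all genes higher and 0.239% lower, and without knockdown replicate 3, with 1.03% higher and 0.419% lower.

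Other scalings and filters left the members' count at 2 or fewer. A pseudocount of 0.1 called GBP1 and IFITM3, with 4.01% of all genes higher and 3.77% lower. Quantile normalization called the same pair, with 4.1% higher and 3.15% lower. The mitochondrial rescaling called IFITM3 and ISG20 in place of GBP1, with 4.97% higher and 1.63% lower. With all rows tested, limma called 0 of 45 members at the adjusted threshold, and 0.673% of all rows were called higher and 0.274% lower.

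The upstream part of the pathway showed a few changes. None of 23 interferon ligand symbols searched was matched to a row, so ligands were not analysed here. Of 12 receptor and JAK-STAT genes tested, 2 rose and 0 fell. IFNGR2, the signalling chain of the interferon gamma receptor, was at 42.8, 42.0 and 38.7 in control and 67.4, 65.0 and 71.5 in knockdown libraries (0.71, limma adjusted p = 0.0131). STAT4 rose from between 1.58 and 2.39 to between 3.50 and 4.87 (0.83, adjusted p = 0.0317). The kinase gene TYK2 (0.70, adjusted p = 0.0590) and the ligand-binding chain gene IFNGR1 (0.57, adjusted p = 0.0925) did not pass.

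Of 8 feedback inhibitor genes tested, 1 rose. SOCS1, which blocks JAK kinases, was at 4.47, 4.95 and 4.55 in control and 9.71, 14.3 and 13.0 in knockdown libraries (1.22, adjusted p = 0.0103). SOCS3 was below the test's limit, at 0.35, 0.30 and 0.49 in control and 2.40, 1.48 and 0.92 in knockdown libraries. USP18, an inhibitor of type I interferon signalling, had a difference of -0.06 (adjusted p = 0.841). Of 9 nucleic acid sensing genes tested, TICAM1, the adaptor of Toll-like receptor 3, rose (0.68, adjusted p = 0.0339), and MAVS, the adaptor of RIG-I, had 4.14, 5.96 and 5.34 in control and 2.42, 3.47 and 2.55 in knockdown libraries (-0.69, adjusted p = 0.0518). The inhibitor genes PIAS1 (-0.20), CISH (0.25) and PTPN2 (0.11) and the sensing genes IRF3 (-0.15) and TRIM25 (-0.10) were not called.

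Of 29 further interferon-stimulated genes tested, 2 rose and 1 fell, with a median difference of 0.13. The difference was above 0 in 16 (55.2%, against 46.5% of all genes tested) and below 0 in 13. At an unadjusted limma p below 0.05, 5 were higher and 5 lower, against 13.4% and 16% of all genes. All knockdown values lay above control in 5 and below control in 8, against 14.4% and 18.7% of all genes. LGALS3BP, a secreted glycoprotein gene, was at 16.4, 12.7 and 15.4 in control and 36.4, 40.8 and 41.6 in knockdown libraries (1.36, adjusted p = 0.0050). UBE2L6, the conjugating enzyme of ISG15, rose from between 7.11 and 7.59 to between 11.9 and 15.0 (0.77, adjusted p = 0.0188). LAP3, a leucine aminopeptidase gene, fell from between 52.4 and 68.0 to between 37.7 and 44.9 (-0.62, adjusted p = 0.0351). CXCL10, a chemokine gene induced by interferon gamma and named after its values were seen, had the largest difference of the 29. It was at 0.89, 1.36 and 1.58 in control and 1.96, 9.14 and 12.7 in knockdown replicates 1, 2 and 3, without overlap, and did not pass (1.72, SE 0.50, adjusted p = 0.0666). WARS, a tryptophanyl-tRNA synthetase gene induced by interferon gamma, had a difference of -0.66 (adjusted p = 0.0540). Over these 4 lists 6 of 58 genes rose and 1 fell, against 4.15% and 3.94% of all genes tested. Without control replicate 2 only LGALS3BP rose, with 0.37% of all genes called higher and 0.0444% lower. Without knockdown replicate 1 there were 12 that rose and 4 that fell, with 11.7% of all genes called higher and 12.8% lower.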

How the data were processed

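Libraries were made from total RNA of Huh7 cells with an Illumina TruSeq RNA kit, per the labels' protocols, and grouped by their titles into 3 control and 3 knockdown libraries. The authors deposited 1 table with 23344 rows and a column per library. Its unit is not named, and its values were treated as FPKM made by the authors, although TPM of an incomplete gene set is possible. Per the submitters' processing notes, the tools were Bowtie2 2.2.6, Trimmomatic 0.36, bcl2fastq 2.19.0, DESeq2 1.16.1, edgeR 3.18.1 and RSEM 1.1.17, with no order or role stated. The build is given as mm10, a mouse build, while the gene IDs are human. No coordinates of the authors' build are therefore given, and the sources used here do not state whether counting used strand.

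Genes at 1 or more in at least 3 libraries (13696) were tested on log2(value + 1) with limma 3.58.1 in R 4.3.3, two-sided, with a variance trend over mean level and robust moderation, and with Benjamini-Hochberg adjustment over all of them and a threshold of 0.05. "Rose" and "fell" mark genes past it. Fold changes on this scale understate those of low genes. With 3 against 3 libraries an exact permutation test cannot go below p = 0.1, so the test relies on a spread shared across genes. Read totals are unknown, so no counting intervals are given. The fit was first tested on simulated data, with changes given to genes of higher level. It recovered 23% of 1.5-fold, 66.6% of 2-fold and 95.2% of 4-fold changes, and 5.68% of its calls were false. The simulated noise was drawn separately for each gene, without differences that a library shares over many genes. These shares may therefore not hold for the real libraries or for members of low level. A gene that was not called may therefore still differ.

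The members, the lists and the rule for named genes were chosen with earlier results of these data known. Named with full values were members with an unadjusted p below 0.05, groups that do not overlap or an absolute log2 fold change of at least 1, GBP1 to GBP5, IFITM1 to IFITM3 and the highest member of each role, and the 4 genes of smallest p of each further list. Other members were also given by library, and CXCL10, SOCS3 and USP18 were named outside that rule after their values were seen. A result on a further gene is not reported here. Ensembl IDs were matched to RefSeq promoters through current symbols. Tried as alternatives were a pseudocount of 0.1, all rows tested, quantile normalization, rescaling without the 13 mitochondrially encoded genes, the replicate number as a block, and leaving out each library.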

Additional observations from a re-analysis of the deposited data

How the results depend on the processing

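In each of 11 alternatives 0 members were called lower. The number of members that rose was 2 with a pseudocount of 0.1, quantile normalization or the mitochondrial rescaling (there IFITM3 and ISG20). It was 5 with the replicate block (3.35% of all genes higher, 2.94% lower). It was 0 in limma with no filter and 0 to 11 when a library was left out. With no filter, limma tested more rows and all 45 members, and their median difference was 0.13, against 0.35. The median was 0.23 to 0.46 when a library was left out. For the further pathway genes, the number that rose was 1 to 12 and the number that fell 0 to 4 when a library was left out. Over all genes, 0.37% to 11.7% were called higher and 0.0444% to 12.8% lower in these fits. The number that fell was 0 with no filter, 0 with the rescaling, 0 with the replicate block and 2 with quantile normalization, against 1. VCAN was at -1.40 without control replicate 2 and did not pass there, with a range of -1.56 to -1.23 when a library was left out. Members with differences near 0 changed sign. With quantile normalization DDX58 was at -0.048, IFIT3 at -0.0046, IFIT5 at -0.034 and MX1 at -0.029. When a library was left out, DDX58 ranged from -0.0802 to 0.23, MX1 from -0.0788 to 0.32, PARP14 from -0.0019 to 0.36, IFI6 from -0.0543 to 0.32, IFIT3 from -0.0186 to 0.24, IFITM2 from -0.0492 to 0.0554 and IFIT5 from -0.0669 to 0.12. The cause of these shifts was not tested. The labels name no shared culture or day, so the replicate numbers were not taken to pair the samples. Deviations of same-numbered libraries correlated over genes at 0.05, 0.10 and 0.14 for replicates 1, 2 and 3. Between libraries of different number the correlations ran from -0.21 to 0.09. The block added GBP2, IRF9 and OAS3 to the calls and, among the further genes, CXCL10. Control replicates 2 and 3 correlated best with their own number, and control replicate 1 did not. Unknown depth limits what can be said of the 18 low members.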
